A study of Mus musculus with 36 samples.

Results

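The 9 genes described here were 9030619P08Rik, 1810053B23Rik, Gm44751, Slc46a3, Arhgap26, Cd276, Gna14, Cib3 and Capn8. They were chosen by measured values, as genes outside chromosome 14, where Thrb lies, whose mean level in THRBKO livers lay on the same side of that in THRBWT livers at every sampling time. They are 9 of the 54532 genes in the count table and 9 of the 17994 tested genes, which had 100 or more counts in the 36 libraries together, so all 9 passed the filter. No numerical limit came with the choice: 143 genes outside chromosome 14 passed the genotype test and differed in 1 direction at all 6 times, 77 higher and 66 lower in THRBKO livers. The difference between genotypes is therefore given as a description for these 9 genes, and no test result of theirs is used as support.

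The study took livers from male mice aged 2 to 3 months, kept on chow and a cycle of 12 h light and 12 h darkness, at 6 zeitgeber times (ZT, counted in hours from the onset of light) from ZT2 to ZT22, spaced by 4 h. Mice of the B6.129S1-Thrbtm1Df/J line, crossed to C57BL/6NCrl, carried an altered Thrb allele, made to disrupt both isoforms of the thyroid hormone receptor THRB and present in every tissue. THRBKO mice had 2 altered alleles, and the controls, called THRBWT by the study, were heterozygous and so also carried 1 altered allele. There were 3 mice per genotype and time, lettered a, b and c, or 18 per genotype.

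THRB is the nuclear receptor through which the hormone T3 acts on hepatocytes. It binds DNA with the retinoid X receptor at paired hexamers of the consensus AGGTCA, of which the direct repeat with 4 bases between is the classical form. With hormone it activates many of its target genes, and without hormone it can hold them down. The 9 genes belong to no common pathway: they comprise a pseudogene related to the Ly6 surface antigens, 2 noncoding RNAs, a lysosomal transporter, a G protein subunit, a regulator of small GTPases, a calcium-binding protein, a calcium-dependent protease and an immune ligand.

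The transcript of 9030619P08Rik, annotated as a transcribed unprocessed pseudogene, is shown first, because its reads could in principle come from the Ly6 genes that it resembles. In a BLAST search of the GENCODE vM21 transcripts, 12 other genes aligned to it over at least 200 columns, with an identity from 73.6% to 81.9%. All 12 lie on chromosome 15, and 6 of them are named as Ly6 genes. The following 123 bases begin at the coding start of Ly6a (stem cell antigen 1), and the capitals mark the 17 mismatches, an identity of 86.2% over this stretch.
9030619P08Rik: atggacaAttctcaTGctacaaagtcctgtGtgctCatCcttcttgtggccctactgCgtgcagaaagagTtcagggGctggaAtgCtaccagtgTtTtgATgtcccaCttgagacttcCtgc
Ly6a: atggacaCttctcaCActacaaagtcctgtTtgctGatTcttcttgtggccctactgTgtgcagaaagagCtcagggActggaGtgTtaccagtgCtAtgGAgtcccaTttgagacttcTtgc

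Promoter windows came from RefSeq (GRCm38.p6, 250 bases before to 50 after a start site, 5′ to 3′ on the gene's strand). They were used for 6 of the 9 genes, in 9 windows. No window was found for 9030619P08Rik and Gm44751, and that of Arhgap26 is not reported here. Both strands were searched for the hexamer AGGTCA and for the direct repeat AGGNCANNNNAGGNCA. The hexamer, present in 16.3% of all 32851 windows, was found in the 4 windows of 1810053B23Rik. It was in none of the windows of Slc46a3, Cd276, Cib3, Gna14 and Capn8, so by gene it was in 1 of 6. The windows of 1810053B23Rik at chr16:93359494-93359793 and chr16:93359462-93359761 overlap and share 1 copy, so the 4 windows are not independent. The direct repeat, present in 0.253% of all windows, was in none of the 9. The RefSeq start sites of 1810053B23Rik lie from 7125 to 13479 bases inside the gene as the count table bounds it. These are statements about letters in short windows and not about binding. The capitals mark the hexamer read on the opposite strand, TGACCT: there are 2 copies in the window of 1810053B23Rik on the minus strand at chr16:93359462-93359761, and none in the window of Slc46a3 on the minus strand at chr5:147894766-147895065 or in that of Capn8 on the plus strand at chr1:182564757-182565056.
1810053B23Rik: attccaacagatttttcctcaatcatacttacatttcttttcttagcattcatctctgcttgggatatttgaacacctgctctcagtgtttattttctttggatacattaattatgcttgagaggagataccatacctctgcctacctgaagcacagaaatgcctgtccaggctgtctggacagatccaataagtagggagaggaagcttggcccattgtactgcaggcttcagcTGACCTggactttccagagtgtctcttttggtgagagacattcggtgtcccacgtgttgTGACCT
Slc46a3: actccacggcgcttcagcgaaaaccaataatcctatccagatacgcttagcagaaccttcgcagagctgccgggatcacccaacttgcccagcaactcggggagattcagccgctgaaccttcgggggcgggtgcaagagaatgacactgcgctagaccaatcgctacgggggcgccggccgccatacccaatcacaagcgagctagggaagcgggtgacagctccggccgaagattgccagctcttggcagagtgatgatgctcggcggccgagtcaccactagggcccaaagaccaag
Capn8: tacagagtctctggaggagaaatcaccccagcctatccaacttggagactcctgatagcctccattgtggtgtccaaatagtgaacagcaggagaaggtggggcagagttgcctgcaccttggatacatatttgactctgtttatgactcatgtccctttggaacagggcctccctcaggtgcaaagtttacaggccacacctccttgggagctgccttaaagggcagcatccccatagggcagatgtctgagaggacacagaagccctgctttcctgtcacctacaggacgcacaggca

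Over the whole gene, Thrb had 28.9 ± 3.69 CPM in THRBWT and 31.5 ± 2.70 CPM in THRBKO livers (SD, n = 18 each). Counts over the whole gene thus did not fall with the altered allele and give no check of the genotype labels. The libraries held from 29063273 to 39913574 counts in THRBWT and from 31008555 to 42530551 counts in THRBKO mice. Levels are given in CPM, the counts per 1e6 counts after scaling of the libraries by edgeR's TMM factors. The hepatocyte markers Alb, Apoa1, Ttr, Cps1, Cyp2e1, Tat and Fgb were present in every library, with a summed level from 68265 to 94577 CPM in THRBWT and from 77410 to 99994 CPM in THRBKO livers. Over 12 lists of cell type markers, 45 of 56 genes were tested for genotype and 0 passed the quasi-likelihood test of edgeR (Benjamini-Hochberg adjusted), 7 with an unadjusted p under 0.05, and DESeq2 also gave 0. Over all 17994 tested genes 0.950% passed that edgeR test, and 2169 had an unadjusted p under 0.05. With so low a share, a count of 0 does not show that the markers were unchanged. All tested markers of Kupffer cells, cholangiocytes, erythroid cells, neutrophils and stomach surface had negative log2 fold changes. The other lists with tested genes held both signs. The lowest adjusted p of a marker in that edgeR test was 0.0957, for Spp1 of the cholangiocyte list (log2 fold change -0.22). In these whole-liver libraries, fewer cells of a type and less RNA per cell cannot be told apart. The THRBKO mouse of ZT14 with the letter c stood farthest from its group over all genes: the SD of its deviations was 0.309 on the log2 scale, against a median of 0.236 and a next highest value of 0.278 over the 36 libraries. Results that rest on this mouse are given with and without it.

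By the test with sampling time as a factor, 9 of 9 genes differed between genotypes and 9 of 9 had the same direction at 6 of 6 times. The shares of all 17994 tested genes that did so were 0.950% and 8.08%. Since the 9 genes were chosen on this contrast, nothing can be read from these counts. The numbers of times at which the mice of a gene did not overlap, given below, are likewise a description only. Such separation at 6 of 6 times was found for 1 of the 9 genes and for 5 of all 17994 tested genes. The shares of all genes for fewer times are not given here. The count of 9 also fell when some mice were left out, which describes the calls and is no support for them. Cib3 had an adjusted p of 0.0541 without the a mice, 0.208 without the b mice, 0.0904 without ZT6 and 0.126 without ZT22, and Capn8 had 0.0634 without the b mice (quasi-likelihood test of edgeR). The log2 fold changes of THRBKO over THRBWT livers ran from -1.32 for Capn8 to 2.73 for 9030619P08Rik. The 3 genes that were higher in THRBKO livers were those annotated as a pseudogene or as noncoding RNAs, and the 6 that were lower were those that code for proteins.

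**Figure D1:**
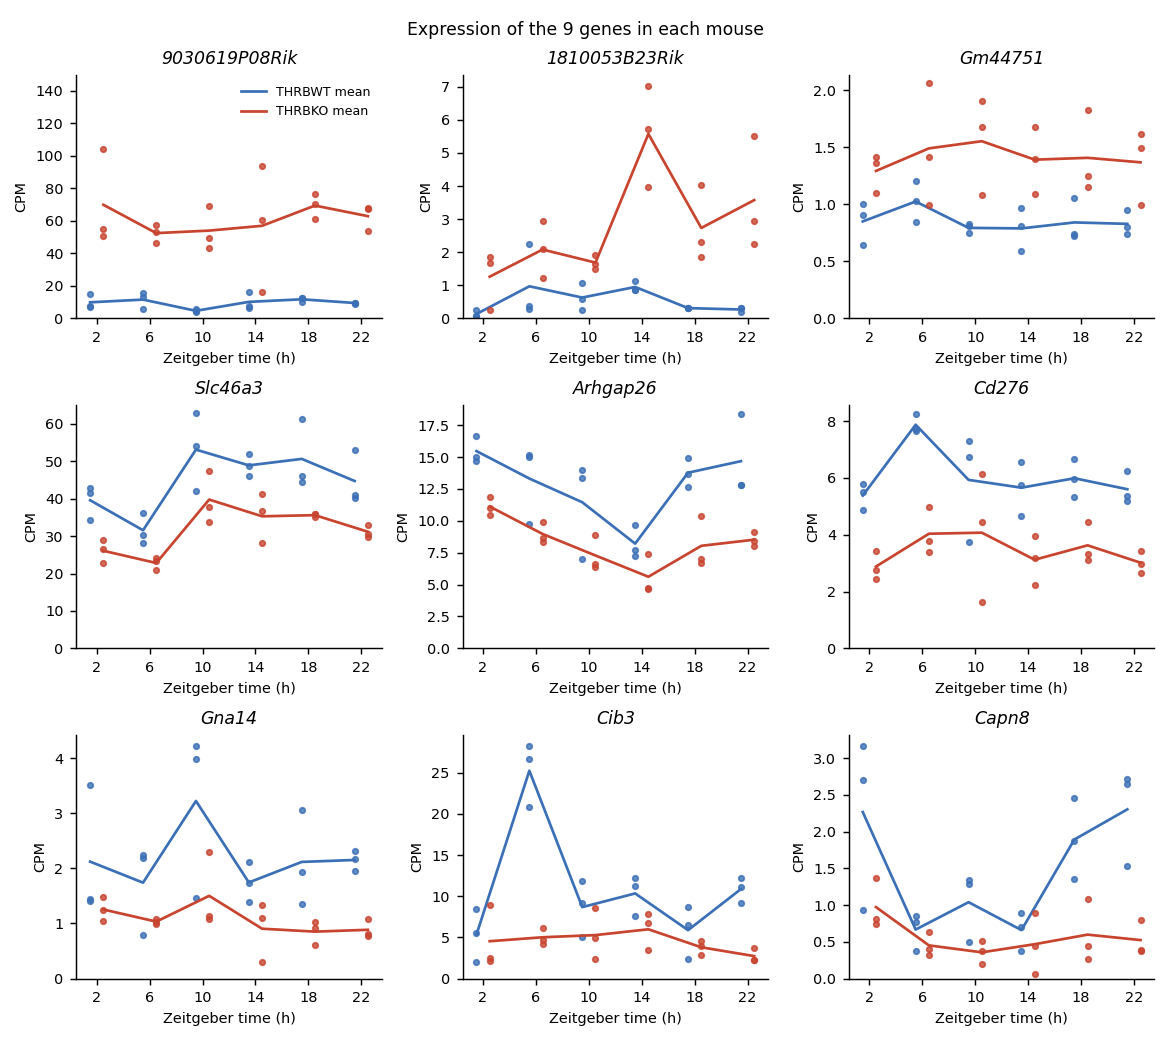
Level of each of the 9 genes (CPM, linear axis from 0) against zeitgeber time (h), with 1 point per mouse, 3 mice per genotype and time, and a line through the means of THRBWT (blue) and THRBKO (red). The THRBKO points of 9030619P08Rik, from 16.2 to 104 CPM, all lie above the THRBWT points, which end at 15.9 CPM, while the points of the other genes overlap in part.

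9030619P08Rik lies on chromosome 15 of GRCm38 (75427606 to 75431829, minus strand). It had from 3.63 to 15.9 CPM with a median of 9.20 in the 18 THRBWT mice and from 16.2 to 104 CPM with a median of 58.9 in the 18 THRBKO mice. Every THRBKO mouse was higher than every THRBWT mouse. The closest pair were the THRBKO mouse of ZT14 with the letter c at 16.2 CPM, the only THRBKO mouse under 43.4 CPM, and the THRBWT mouse of ZT14 with the highest value, 15.9 CPM. The log2 fold change was 2.73 (SE, the standard error, 0.181; 18 mice per genotype), or 6.63-fold, and 2.80 without that THRBKO mouse. Such a separation of all 36 mice was found for 1 of the 9 genes and for 0.0222% of all tested genes, which are 4 genes. The other 3, named here after their values were seen, were Gm10020, Rpl15-ps2 and Rpl15-ps3. Their sequences were not compared with those of other genes, so whether their reads come from elsewhere was not tested.

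The difference of 9030619P08Rik was present at each time. It was lowest at ZT6, where the THRBWT mice had 5.45, 13.3 and 15.5 CPM and the THRBKO mice 46.6, 53.3 and 57.2 CPM, a log2 fold change of 2.20 (SE 0.424). It was highest at ZT10, where the THRBWT mice had 3.63, 4.34 and 5.56 CPM and the THRBKO mice 43.4, 49.4 and 68.9 CPM, a log2 fold change of 3.58 (SE 0.457). The larger fold at ZT10 came with a lower THRBWT level, since the THRBKO means at these 2 times were 52.4 and 53.9 CPM.

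Of the 12 genes similar to it in sequence, picked by alignment with results of these data known, 5 had enough counts to be tested. Of these 5, 1 passed the genotype test, against 0.950% of all tested genes, and none of those named as Ly6 genes did. Ly6a had 7.76 ± 3.04 CPM (SD, n = 18) in THRBWT and 7.75 ± 2.15 CPM (SD, n = 18) in THRBKO livers, a log2 fold change of 0.01 (SE 0.136). Ly6c1, Ly6c2 and Ly6f each had a mean under 1 CPM in both genotypes and adjusted p-values of 0.875, 0.977 and 0.456 (quasi-likelihood test of edgeR, Benjamini-Hochberg adjusted). The gene that passed was BC025446, which lies 205 kb away on the same chromosome and had an identity of 81.0% over 415 columns. It rose from 122 ± 18.8 to 147 ± 14.8 CPM (SD, n = 18 each), or by 0.27 on the log2 scale with an SE of 0.0555 (edgeR, quasi-likelihood test, adjusted p = 0.0066). Leaving out the b mice gave an adjusted p of 0.113, and leaving out ZT22 gave 0.0528.

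1810053B23Rik, a noncoding transcript on chromosome 16 (93342504 to 93366668, minus strand), was scarce in THRBWT livers, with 2 to 77 counts per library, and reached 256 counts in THRBKO livers. Its level was from 0.0586 to 2.25 CPM with a median of 0.298 in THRBWT and from 0.247 to 7.03 CPM with a median of 2.17 in THRBKO mice. The ranges overlapped, with 15 THRBWT and 10 THRBKO mice inside the range of the other genotype. The THRBWT maximum was 1 mouse at ZT6 with 2.25 CPM, whose fellows had 0.263 and 0.377 CPM. The lowest THRBKO value was 1 mouse at ZT2 with 0.247 CPM, against 1.67 and 1.84 CPM in the others. The log2 fold change was 2.41 (SE 0.294, 18 mice per genotype), or 5.32-fold. It ran from 1.10 (SE 0.583) at ZT6 to 3.76 (SE 0.683) at ZT22, and the 3 mice of each genotype did not overlap at ZT10, ZT14, ZT18 and ZT22. At ZT14 the THRBWT mice had 0.849, 0.860 and 1.12 CPM and the THRBKO mice 3.97, 5.73 and 7.03 CPM.

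Gm44751 is a lincRNA of 1 exon on chromosome 7 (88311478 to 88315864, plus strand). It had from 0.590 to 1.20 CPM with a median of 0.815 in THRBWT and from 0.994 to 2.06 CPM with a median of 1.40 in THRBKO mice. In counts these are 20 to 41 and 32 to 75 per library, so that counting error is a large part of the spread of each value. The log2 fold change was 0.73 (SE 0.108, 18 mice per genotype), or 1.66-fold, from 0.54 at ZT6 to 0.96 at ZT10. At 5 times the 3 THRBKO mice lay above the 3 THRBWT mice. The exception was ZT6, where a THRBKO mouse with 0.994 CPM lay within the THRBWT range of 0.843 to 1.20 CPM.

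**Figure D2:**
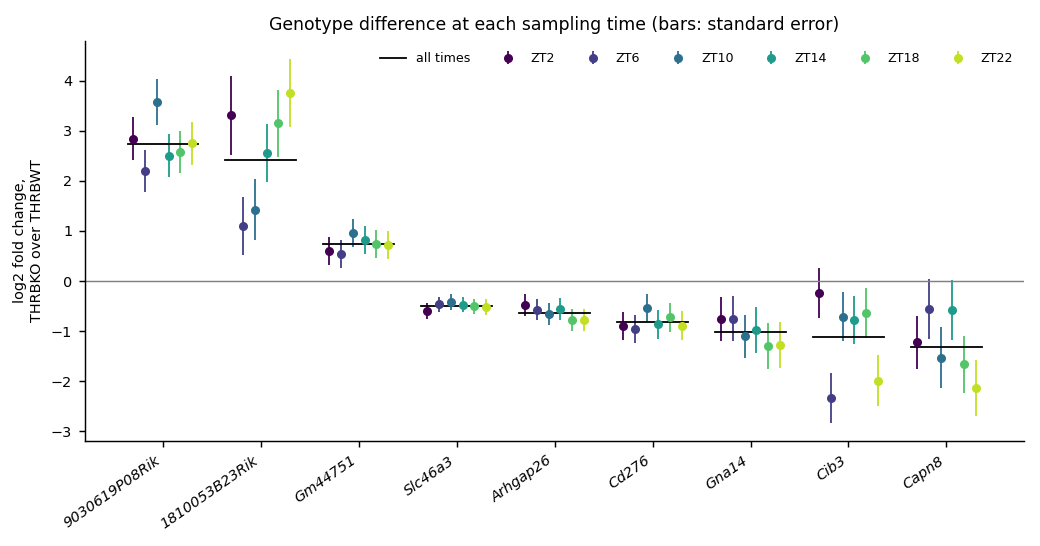
Log2 fold change of THRBKO over THRBWT livers for each gene at each of the 6 sampling times (coloured points, bars are standard errors, 3 mice per genotype) and over all times (black line). All points of a gene lie on 1 side of 0, as the choice of the genes required, and the points of Cib3 spread from -0.24 at ZT2 to -2.33 at ZT6.

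Slc46a3 encodes a lysosomal membrane transporter of the proton-coupled SLC46 family and lies on chromosome 5 (147878437 to 147894815, minus strand). It had from 28.2 to 63.0 CPM with a median of 43.7 in THRBWT and from 21.0 to 47.5 CPM with a median of 31.8 in THRBKO mice. Pooled over times the ranges overlapped by 12 mice of each genotype, but within a sampling time the 3 THRBKO mice were below the 3 THRBWT mice at 5 of 6 times. The log2 fold change of -0.50 (SE 0.0584, 18 mice per genotype), a 1.41-fold lower level, was the smallest in size of the 9, and over the day it ran from -0.42 at ZT10 to -0.60 at ZT2. At ZT2 the THRBWT mice had 34.3, 41.5 and 42.9 CPM and the THRBKO mice 22.7, 26.6 and 28.9 CPM. At ZT10, the time of overlap, they had 42.2, 54.2 and 63.0 CPM and 33.9, 37.9 and 47.5 CPM.

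Gna14 encodes an alpha subunit of the Gq class of heterotrimeric G proteins, which couple receptors to phospholipase C, and lies on chromosome 19 (16435667 to 16610818, plus strand). Its level was from 0.790 to 4.22 CPM with a median of 2.03 in THRBWT and from 0.291 to 2.30 CPM with a median of 1.06 in THRBKO mice. The groups of 3 did not overlap at ZT14, ZT18 and ZT22, and overlapped at the 3 times of the light phase. The log2 fold change was -1.03 (SE 0.175, 18 mice per genotype), a 2.04-fold lower level, from -0.75 at ZT6 to -1.30 at ZT18. The lowest value of all was again that of the THRBKO mouse of ZT14 with the letter c, and the log2 fold change was -0.97 without it.

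Arhgap26 encodes GRAF1, a protein that stimulates GTP hydrolysis by the GTPases RhoA and Cdc42. It lies on chromosome 18 (38601534 to 39376284, plus strand), and Fgf1 lies inside it on the opposite strand. The libraries do not keep the strand, so reads of overlapping exons cannot be assigned. Its level was from 7.02 to 18.4 CPM with a median of 13.5 in THRBWT and from 4.65 to 11.9 CPM with a median of 8.38 in THRBKO mice. The THRBWT mice inside the THRBKO range were 5: all 3 of ZT14, 1 of ZT6 and 1 of ZT10. The log2 fold change was -0.64 (SE 0.0844, 18 mice per genotype), a 1.55-fold lower level, from -0.48 at ZT2 to -0.78 at ZT22. Fgf1, which encodes a fibroblast growth factor, had 111 ± 27.9 and 112 ± 26.9 CPM (SD, n = 18 each) and a log2 fold change of 0.02 (SE 0.0565).

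Cib3 encodes a member of the calcium- and integrin-binding family and lies on chromosome 8 (72204335 to 72212837, minus strand). At ZT6 the THRBWT mice had 20.8, 26.7 and 28.3 CPM and the THRBKO mice 4.25, 4.64 and 6.16 CPM, a log2 fold change of -2.33 (SE 0.496). These 3 THRBWT values were above those of all other mice of either genotype, whose highest was 12.2 CPM. At ZT22 the THRBWT mice had 9.23, 11.2 and 12.2 CPM and the THRBKO mice 2.23, 2.29 and 3.67 CPM. At the other 4 times the mice of both genotypes overlapped, and at ZT2 the log2 fold change of -0.24 was smaller than its standard error of 0.495. Over all times the log2 fold change was -1.12 (SE 0.233, 18 mice per genotype), a 2.17-fold lower level, and without ZT6 it was -0.87. Whether the difference varied with time was not tested, because the choice of the genes used the values at each time.

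Capn8 encodes a calpain, a calcium-dependent cysteine protease known from mucous cells of the stomach, and lies on chromosome 1 (182565007 to 182632352, plus strand). It was scarce, with 13 to 99 counts per library in THRBWT and 3 to 46 in THRBKO mice, or from 0.380 to 3.16 CPM with a median of 1.31 and from 0.0672 to 1.37 CPM with a median of 0.448. The groups of 3 did not overlap at ZT18, where the THRBWT mice had 1.35, 1.87 and 2.46 CPM and the THRBKO mice 0.265, 0.448 and 1.08 CPM, and at ZT22, with 1.53, 2.65 and 2.72 CPM against 0.376, 0.393 and 0.801 CPM. At ZT6 and ZT14 the means differed least, with log2 fold changes of -0.56 (SE 0.606) and -0.58 (SE 0.606). Over all times the log2 fold change was -1.32 (SE 0.239, 18 mice per genotype), a 2.49-fold lower level, and -1.26 without the THRBKO mouse of ZT14 with the letter c, which had the lowest value. Of the stomach surface markers, Gkn1 and Gkn2 were at 0 in all 36 libraries, and the summed level of the 4 markers was at most 0.498 CPM in THRBWT and 0.462 CPM in THRBKO mice.

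Cd276 encodes B7-H3, an immune checkpoint ligand of the B7 family, and lies on chromosome 9 (58524298 to 58555437, minus strand). Gm10657 overlaps it on the opposite strand and shares 416 bases with its transcript, so reads there cannot be assigned. The level of Cd276 was from 3.75 to 8.24 CPM with a median of 5.87 in THRBWT and from 1.62 to 6.15 CPM with a median of 3.35 in THRBKO mice. The 3 THRBKO mice were below the 3 THRBWT mice at 5 of 6 times. At ZT6 the THRBWT mice had 7.66, 7.71 and 8.24 CPM and the THRBKO mice 3.38, 3.76 and 4.96 CPM, and the log2 fold change was largest in size at -0.96. At ZT10 the values were wide in both genotypes, 3.75, 6.74 and 7.30 CPM against 1.62, 4.45 and 6.15 CPM, and the log2 fold change was -0.53. Over all times it was -0.81 (SE 0.111, 18 mice per genotype), a 1.76-fold lower level. The summed markers of Kupffer cells ranged from 163 to 529 CPM in THRBWT and from 163 to 315 CPM in THRBKO mice, those of stellate cells from 89.0 to 211 and from 125 to 248 CPM, and those of endothelial cells from 79.8 to 173 and from 99.4 to 186 CPM. None of these 19 marker genes passed the genotype test, and their part in the difference of Cd276 was not tested.

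Per kb of gene length, the median level of the 9 genes in THRBWT livers fell in the order Slc46a3 (17.8 CPM per kb), 9030619P08Rik (9.84), Cib3 (4.57), Cd276 (1.60), Arhgap26 (0.782), Gna14 (0.601), Capn8 (0.347), Gm44751 (0.186) and 1810053B23Rik (0.0574). The ranges over mice of each pair of neighbours in this order overlapped. In THRBKO livers 9030619P08Rik came first at 63.0 CPM per kb, before Slc46a3 at 13.0, and 1810053B23Rik was sixth at 0.418. Gna14 at 0.312 and Capn8 at 0.119 came last there. In the THRBKO order the ranges of Slc46a3 and Cib3, at 2.05 CPM per kb, did not overlap, and those of the other neighbours did.

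Time of day within a genotype was not used in choosing the genes and was tested with 5 contrasts between the 6 times. In THRBWT livers 5 of the 9 genes changed with time, against 26.4% of all tested genes. Slc46a3 had its highest mean at ZT10 (53.1 CPM) and its lowest at ZT6 (31.6 CPM), and its adjusted p was 0.00327 (quasi-likelihood test of edgeR, Benjamini-Hochberg adjusted). Cib3 was highest at ZT6 (25.3 CPM) and lowest at ZT2 (5.32 CPM), and its adjusted p was 0.00339. Capn8 was highest at ZT22 (2.30 CPM) and lowest at ZT14 (0.659 CPM; adjusted p = 0.0153), so its THRBWT level was 3.49-fold higher at the former. Arhgap26 was highest at ZT2 (15.5 CPM) and lowest at ZT14 (8.21 CPM; adjusted p = 0.0194). 1810053B23Rik was highest at ZT6 (0.964 CPM, of which 1 mouse gave most) and lowest at ZT2 (0.124 CPM; adjusted p = 0.0176). The adjusted p-values of 9030619P08Rik (0.171), Gna14 (0.501), Cd276 (0.573) and Gm44751 (0.874) did not pass.

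In THRBKO livers 3 of the 9 genes changed with time, against 24.9% of all tested genes. Slc46a3 was again highest at ZT10 (39.8 CPM) and lowest at ZT6 (22.8 CPM), and its adjusted p was 0.00138 (quasi-likelihood test of edgeR, Benjamini-Hochberg adjusted). Arhgap26 was again highest at ZT2 (11.1 CPM) and lowest at ZT14 (5.62 CPM; adjusted p = 0.0210). 1810053B23Rik was highest at ZT14 (5.58 CPM) and lowest at ZT2 (1.25 CPM; adjusted p = 0.0274). Cib3, with means from 2.73 to 5.98 CPM, and Capn8, with means from 0.357 to 0.972 CPM, had adjusted p-values of 0.495 and 0.398 in THRBKO livers. A call in THRBWT livers and none in THRBKO livers does not show that the genotypes differ in their change with time, which was not tested.

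The time-of-day calls depended on single letters and times. Each of the 5 calls in THRBWT livers ended when the mice of either of 2 letters were left out, which leaves 2 mice per group. By the same edgeR test, the adjusted p of Slc46a3 was then 0.0828 (without a) and 0.162 (without b), that of Cib3 0.0574 (a) and 0.0563 (b), and that of Capn8 0.124 (a) and 0.230 (b). That of 1810053B23Rik was 0.0843 (a) and 0.108 (c), and that of Arhgap26 0.134 (b) and 0.172 (c). Without ZT6 the adjusted p of Cib3 was 0.405, that of Slc46a3 0.238 and that of Capn8 0.0731. Without ZT14 that of Arhgap26 was 0.526 and that of 1810053B23Rik 0.0535, and without ZT2 they were 0.0518 and 0.0626.

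Of the calls in THRBKO livers, that of Slc46a3 ended without letter b (adjusted p = 0.131, same edgeR test). That of Arhgap26 ended without b (0.150), c (0.210), ZT2 (0.182) or ZT14 (0.214), and that of 1810053B23Rik without a (0.161), c (0.186), ZT2 (0.0522), ZT10 (0.0507) or ZT14 (0.297). Without the THRBKO mouse of ZT14 with the letter c alone, the adjusted p was 0.0851 for Arhgap26 and 0.0680 for 1810053B23Rik, and 1 call was left in THRBKO livers. In the same fit 9030619P08Rik gained a call in THRBWT livers (0.0432), as it did without ZT14 (0.0179), and there it was highest at ZT18 (11.6 CPM) and lowest at ZT10 (4.51 CPM).

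Paralogs and partners of the coding genes were compared next. Lists of paralogs and partners held 62 genes, of which 53 were tested. Of these, 0 passed the quasi-likelihood test of edgeR after adjustment, against 0.950% of all tested genes. With so low a share, a count of 0 does not show that these genes were unchanged. An unadjusted p under 0.05 was found for 6 of the 53, against 2169 of all 17994 genes, and DESeq2 called 0. Their log2 fold changes had a median of -0.01, against -0.00 over all tested genes, and ran from -0.85 for Capn11 to 0.58 for Rgs16. Slc46a1, the proton-coupled folate transporter, had 43.1 ± 4.16 and 42.9 ± 3.95 CPM (SD, n = 18 each) in THRBWT and THRBKO livers, and Slc46a2 was at 0 in every library. Among the other Gq subunits, Gna11 had 63.1 ± 5.56 and 62.4 ± 5.53 CPM and Gnaq 17.6 ± 2.55 and 19.0 ± 1.65 CPM (SD, n = 18 each). The effectors of Gq, phospholipases C beta and IP3 receptors, and the RGS regulators were all tested, 14 of 14, and 0 passed.

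Cib1 had 62.5 ± 7.44 and 57.3 ± 5.84 CPM and Cib2 5.15 ± 1.16 and 5.25 ± 0.909 CPM (SD, n = 18 each), and Cib4 was at 0 in every library. Capn2, the large subunit of m-calpain, whose gene lies 47.4 kb from Capn8, had 44.7 ± 9.74 and 44.4 ± 9.91 CPM, and Capn9, the other stomach calpain, had means of 0.0118 and 0.0227 CPM and was not tested. Cd274, which encodes PD-L1, had 2.04 ± 0.763 and 2.22 ± 0.707 CPM (SD, n = 18 each). Arhgap10 had 1.65 ± 0.332 and 1.47 ± 0.229 CPM and Arhgap42 54.3 ± 5.62 and 56.3 ± 5.89 CPM (SD, n = 18 each). The GTPases on which GRAF1 acts, Rhoa and Cdc42, had log2 fold changes of 0.02 (SE 0.0302) and -0.03 (SE 0.0259).

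Of 12 liver genes known to respond to thyroid hormone, all tested, 1 fell and 1 rose by the genotype test, against 0.950% of all tested genes. An unadjusted p under 0.05 was found for 4 of the 12 (quasi-likelihood test of edgeR), against 2169 of all 17994 genes. Dio1, which encodes the type 1 deiodinase, had 94.4 ± 32.0 CPM in THRBWT and 48.3 ± 12.3 CPM in THRBKO livers (SD, n = 18 each), which is -0.97 on the log2 scale. This lies within the range of the 6 coding genes that were lower. Gpd2, the mitochondrial glycerol-3-phosphate dehydrogenase, had 27.7 ± 5.66 and 35.4 ± 4.52 CPM (SD, n = 18 each), and the edgeR test gave an adjusted p of 0.00202. Leaving out the a mice raised it to 0.0534 and leaving out the c mice to 0.0713.

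Genes beside the 9 genes were tested to see whether a difference extended along the chromosome. Within 250 kb of them lay 120 genes of the table, of which 47 were tested. Of these, 3 rose and 0 fell, or 6.38% of those tested, against 0.950% of all tested genes. An unadjusted p under 0.05 was found for 10 of the 47, against 2169 of all 17994 genes. There were 2 calls without the mice of any 1 letter and 1 call without ZT22. Ctsc, which encodes the lysosomal protease cathepsin C, ends 590 bases before Gm44751 begins, on the same strand. It rose from 86.8 ± 12.9 to 136 ± 25.4 CPM (SD, n = 18 each), or by 0.64 on the log2 scale (SE 0.0682, edgeR adjusted p = 1.8e-07), and Gm44751 by 0.73, and its mice did not overlap at 5 of 6 times. Over the 36 libraries, after subtraction of the mean of each genotype and time, Gm44751 and Ctsc had a Pearson's r of 0.561. Whether the reads counted for Gm44751 come from a transcript separate from that of Ctsc was not tested.

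AC140346.1, a lincRNA that begins 1571 bases from 1810053B23Rik on the opposite strand, rose from 0.429 ± 0.259 to 0.876 ± 0.525 CPM (SD, n = 18 each). On the log2 scale this is 0.94 with an SE of 0.218 (edgeR, quasi-likelihood test, adjusted p = 0.0215), and its r with 1810053B23Rik was 0.558. Leaving out the a mice gave an adjusted p of 0.367, leaving out the c mice 0.198, and leaving out ZT14, ZT18 and ZT22 in turn 0.138, 0.152 and 0.105. The third call was BC025446. No tested neighbour of Slc46a3, Arhgap26, Cd276, Cib3, Gna14 or Capn8 passed the test. Pomp, 1981 bases from Slc46a3, differed by -0.12 on the log2 scale (SE 0.0506), and Spry4, 266 bases from Arhgap26, by 0.05 (SE 0.125). Gm15337, which overlaps the end of Arhgap26 on the opposite strand and matches its transcript over 209 bases, had 0.121 and 0.0536 CPM, and its difference of -1.12 (SE 0.399) had an edgeR adjusted p of 0.211.

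**Figure D3:**
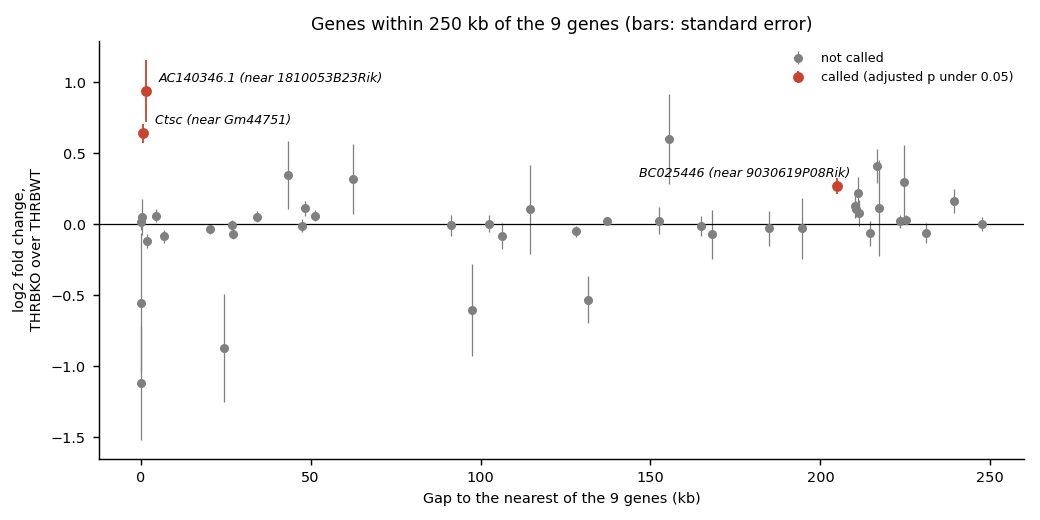
Log2 fold change of THRBKO over THRBWT livers (bars are standard errors, 18 mice per genotype) of the 47 tested genes within 250 kb of the 9 genes, against the gap in kb. The 3 genes with an adjusted p under 0.05 are red: Ctsc at 0.59 kb from Gm44751, AC140346.1 at 1.57 kb from 1810053B23Rik and BC025446 at 205 kb from 9030619P08Rik.

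The mice of a group also differed from each other, and these deviations were shared by some of the 9 genes. For each pair of genes the log2 CPM, less the mean of each genotype and time, were correlated over the 36 libraries. The points share library size, scaling and, for each gene, 12 subtracted means, and the values are a description. Most mice of the same time and letter also deviated together across genotypes: 17 of 18 THRBWT mice were closest to the THRBKO mouse of their letter. The values of r within each genotype are therefore not from independent sets, and the part of the letters in them was not tested. Over the 36 pairs r ran from -0.454 to 0.711 with a median of -0.06, and 6 pairs were above 0.5. Arhgap26 and Gna14 had 0.711, Slc46a3 and Arhgap26 0.691, and Slc46a3 and Gna14 0.629, and each of these pairs had an r of at least 0.497 within each genotype. Arhgap26 and Capn8 had 0.575. The 2 further pairs rested in part on the THRBKO mouse of ZT14 with the letter c: 9030619P08Rik and Capn8 went from 0.599 to 0.378 without it, and Slc46a3 and Capn8 from 0.539 to 0.420, so that 4 pairs were above 0.5 over 35 libraries. The lowest r was that of Slc46a3 and Cib3, genes that were both lower in THRBKO livers.

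**Figure D4:**
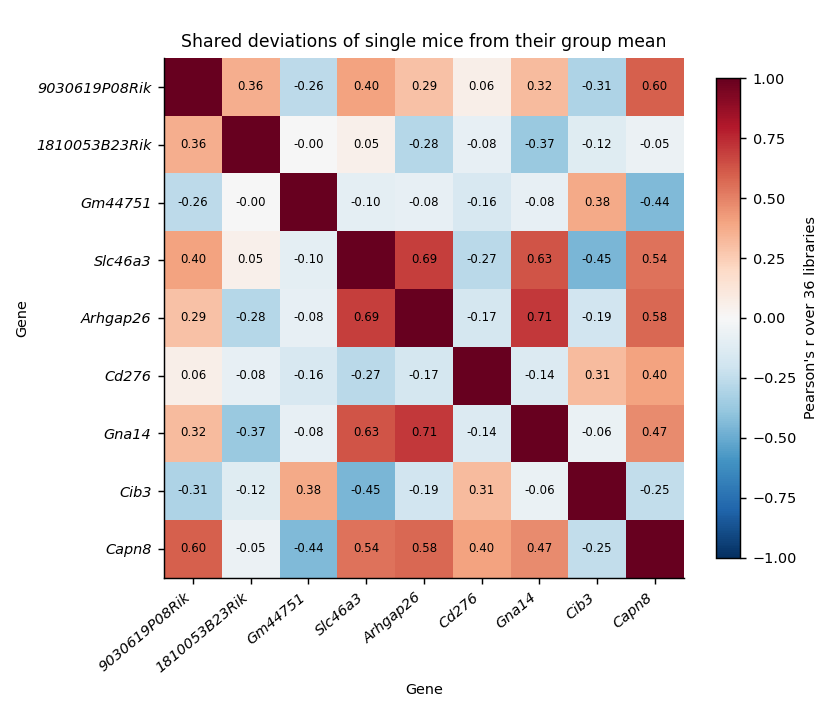
Pearson's r over 36 libraries between the deviations of the 9 genes (log2 CPM less the mean of each genotype and sampling time), with genes ordered by their log2 fold change on both axes and colour from -1 (blue) to 1 (red). Slc46a3, Arhgap26 and Gna14 form a group with r from 0.629 to 0.711. Capn8 had an r of 0.539, 0.575 and 0.472 with them, and each of the remaining genes had at most 0.401.

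The 2 genes with the most similar deviations were taken for each of the 9, among genes with a mean of at least 1 CPM. For Slc46a3 they were Pla2g15, a lysosomal phospholipase, with r = 0.884 and Pgpep1 with 0.767 over the 36 libraries. For 9030619P08Rik they were Ces2c, a carboxylesterase, with 0.832 and Them7 with 0.781, or 0.732 and 0.647 without the THRBKO mouse of ZT14 with the letter c. For Arhgap26 they were Ppp1r9a with 0.829 and Qprt, an enzyme of NAD synthesis, with 0.790. For Gna14 they were Ido2, an indoleamine dioxygenase, with 0.825 and Bhmt2 with 0.794, or 0.757 and 0.705 without that mouse.

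For Capn8 the most similar genes were Rarres1 with 0.827 and Susd4 with 0.793, or 0.737 and 0.696 without the same mouse. Susd4 lies 131.5 kb from Capn8 and differed by -0.53 on the log2 scale (SE 0.167, edgeR adjusted p = 0.135). For Cd276 they were Csad with 0.751 and Manba with 0.726, for 1810053B23Rik Siva1 with 0.745 and Hexa with 0.701, for Cib3 Ccdc9 with 0.728 and Dynlt1c with 0.697, and for Gm44751 Inpp5a with 0.720 and Slc17a1 with 0.669. Of these 18 genes, 0 passed the genotype test, against 0.950% of all tested genes. Their adjusted p-values ran from 0.0908 for Ces2c to 0.996 for Dynlt1c (quasi-likelihood test of edgeR).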

How the data were processed

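Poly-A selected, non-directional libraries from 36 livers were sequenced with paired-end reads. The submitters' processing notes name HISAT2, featureCounts and DESeq2 with the builds GRCm38 and mm10; versions, annotation release and the treatment of reads with several matches are not given in the sources used here. The authors deposited whole-number counts per gene for 54532 genes, without normalization or filter. Groups came from the sample titles.

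Of these, genes whose 36 counts added up to 100 or more were tested with edgeR 4.0.16 (TMM, glmQLFit, glmQLFTest, limma 3.58.1, R 4.3.3) and adjusted by the Benjamini-Hochberg procedure over all 17994, with a threshold of 0.05. Genotype was tested with time as a factor. Time of day was tested within each genotype in a model of 12 groups. Standard errors are the size of the log2 fold change divided by the root of the F statistic. CPM use TMM factors (0.941 to 1.06), and log2 CPM a prior count of 2. Similar transcripts were found with BLAST 2.17.0. The scripts were tested on simulated counts.

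The 9 genes and all lists were chosen with earlier results of these data known. Named genes are the 9, called family genes and neighbours within 250 kb, the closest paralogs, and the 2 most similar genes of each. The median of 33540565 counts per THRBWT library limits precision for genes with few counts. The labels do not say what the letters a, b and c mark. The numbers in the sample descriptions differed by at most 10 in 15 of the 18 pairs of THRBWT and THRBKO mice of the same time and letter, and what these numbers stand for is not given in the sources used here. The tests treat the mice as independent, although most mice of the same time and letter deviated together. The p-values set a difference against the spread between these mice. Alternatives were DESeq2 1.42.0, other filters and models, a replicate block and leaving out letters, and, added after the data were seen, leaving out each sampling time or 1 mouse.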

Additional observations from a re-analysis of the deposited data

How the results depend on the processing

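The log2 fold changes of the 9 genes kept their direction in all 144 values under the alternatives (16 for each gene). The choice of the genes by direction made this likely, so it is no support for them. All 144 values moved by less than the spread between replicates, but some moved by more than their SE. Without ZT6, Cib3 went from -1.12 (SE 0.233) to -0.87 and 1810053B23Rik from 2.41 (SE 0.294) to 2.73. The adjusted p was over 0.05 in 4 of the 16 values for Cib3 and 1 for Capn8. The number of genes that passed the genotype test, 171 with time as a factor, was 315 with DESeq2, 65 with genotype alone, 40 to 81 without the mice of 1 letter, and 98, 107 and 68 without ZT2, ZT18 and ZT22. Leaving out the THRBKO mouse of ZT14 with the letter c gave 188. With mice of the same time and letter as a replicate block it was 387. The letters were not taken as pairs, since not every pair deviated together: of 18 pairs, 16 had a correlation of deviations over 0.1 (lowest -0.06), and 17 of 18 THRBWT mice were closest to the THRBKO mouse of their own letter. The exception was the pair of ZT14 with the letter c, which held the THRBKO mouse farthest from its group. Most mice of a letter thus shared something, and the fits without the block leave this in the residuals. The block added a time-of-day call in THRBWT livers for 9030619P08Rik (adjusted p = 0.0487, quasi-likelihood test of edgeR), as did fitting with no filter (0.0494) and without ZT14 (0.0179). The number of thyroid-responsive genes called, 2, fell to 1 without letter a or c and stayed 2 without b. The neighbours called, 3, were 1 without ZT22.

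The number of the 9 genes that changed with time in THRBWT livers, 5, was 1 to 3 without the mice of 1 letter, 3 without ZT2, 2 without ZT6 and 6 without the THRBKO mouse of ZT14 with the letter c. In THRBKO livers, 3 became 1 to 2 without a letter, 1 without ZT2, 1 without ZT14 and 1 without the THRBKO mouse of ZT14 with the letter c. With sine and cosine terms the adjusted p was 0.0754 for Cib3 in THRBWT and 0.0614 for 1810053B23Rik in THRBKO livers, and with the libraries of 1 genotype alone that of Arhgap26 was 0.0513 in THRBWT livers (edgeR's quasi-likelihood test). With genotype alone, AC140346.1 had an adjusted p of 0.135. The cause was not tested. Depth limits 1810053B23Rik, Capn8 and Gm44751, with libraries of 2, 3 and 20 counts.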
